A study of Mus musculus with 18 samples.

Results

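The AP-1 family members Jun, Junb, Jund, Fos, Fosb, Fosl1, Fosl2, Batf and Batf3 were followed across sorted epidermal cells of mice that lose Jun and Junb. These 9 genes were chosen by name, and all 9 are among the 23951 genes measured. In NCBIM37 Jun lies at chr4:94715725-94718913, Junb at chr8:87500811-87502617, Jund at chr8:73221638-73224515, Fos at chr12:86814840-86818223, Fosb at chr7:19888070-19895394, Fosl2 at chr5:32438845-32460204, Batf at chr12:87027619-87050037 and Batf3 at chr1:192922293-192932822. The question asked of them was whether any other member stood at a higher transcript level where Jun and Junb had been deleted.

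RNA-seq covered 18 libraries of cells from ear skin, taken at day 7, from 3 mice for each of the 6 groups. DKO* mice carried f/f alleles of both JunB and c-Jun with K5-Cre-ERT; mT/mG, and control (Co) mice had the same K5-Cre-ERT; mT/mG alleles with Jun and JunB either wild-type or heterozygous for the floxed allele. Adult mice of both sexes were used, and tamoxifen was given to all. The Cre is driven by the K5 promoter of basal keratinocytes, and the mT/mG reporter turns a cell from Tomato to GFP when Cre has acted, so in DKO* mice GFP cells are the mutant and Tom cells the non-mutant fraction. Bulge hair follicle stem cells (HF-SCs) were sorted as CD45-, CD49f high, CD34+ and basal keratinocytes (b-KCs) as CD45-, CD49f high, CD34-, after digestion of the ear skin with trypsin. Mice 810, 825 and 828 gave the Co libraries of both cell types, and mice 814, 815 and 817 gave the GFP and Tom libraries of both, so each comparison with Co within a cell type shares its control libraries with the other. The labels of the Co libraries name no colour. By the labels, each comparison with Co thus sets a GFP or Tom fraction against cells not split by colour.

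AP-1 is a dimer of basic leucine zipper proteins. Jun proteins can pair with each other or with Fos proteins, Fos proteins need a Jun partner, and Batf proteins pair with Jun proteins but lack a transactivation domain. In epidermis AP-1 is known for its control of keratinocyte proliferation, differentiation and cytokine genes, and Fos, Fosb, Jun and Junb are immediate-early genes, which cells switch on within minutes of serum, stress or wounding.

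Jun is the member known to regulate its own promoter, through a variant AP-1 site close to the start of transcription, and that stretch is shown as a description of the gene. The sequence is the 250 bases before the RefSeq start of Jun (promoter table of GRCm38.p6), which match NCBIM37 once, at chr4:94718914-94719163 on the minus strand, directly before the annotated gene. Capitals mark the TGACATCA match, which begins 45 bases before the start.
Jun promoter: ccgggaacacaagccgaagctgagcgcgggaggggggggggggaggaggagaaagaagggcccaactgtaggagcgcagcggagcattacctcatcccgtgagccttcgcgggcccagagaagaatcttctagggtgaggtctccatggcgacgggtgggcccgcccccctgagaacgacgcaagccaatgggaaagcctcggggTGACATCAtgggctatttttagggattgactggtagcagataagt
On either strand TGACATCA was found in 2.93% of 32851 promoter windows of this length, the AP-1 element TGACTCA in 4.46% and the CRE element TGACGTCA in 1.55%. Of the 8 members in the promoter table, which has no entry for Fosl1, Jun alone held any of the 3 motifs in this window. Whether the site has a part in any level of Jun below was not tested.

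The values are FPKM, fragments per length of transcript and depth of sequencing, as deposited. Comparisons were made with limma on log2(FPKM + 1), on which changes of weakly expressed genes come out too small, over the 12751 genes that reached 1 FPKM in 3 or more libraries, and a gene passed at an adjusted p-value under 0.05. Of the members, 8 reached this level, and Batf3 did not. Batf reached 1 FPKM in 4 libraries, all of them from DKO* mice. Low FPKM values stepped in whole reads that imply 16500000 to 26300000 reads per library. The summed FPKM of a library ranged from 360063 to 706509, and scaling the libraries to equal sums moved the median log2 fold change of all genes from -0.03 to -0.30 for b-KC GFP against Co, from -0.02 to -0.25 for b-KC Tom, from -0.05 to -0.19 for HF-SC GFP and from -0.04 to -0.18 for HF-SC Tom. The genes passing in b-KC GFP then went from 2588 higher and 2713 lower to 1335 higher and 4140 lower, in b-KC Tom from 2881 and 2976 to 1665 and 3933, in HF-SC GFP from 2364 and 2545 to 1874 and 3129, and in HF-SC Tom from 2843 and 2815 to 2334 and 3294. No member that passed in a comparison changed direction under this scaling. Cd34 stood at 161 to 889 FPKM in HF-SC libraries and at 0.341 to 2.53 FPKM in b-KC libraries, as the sort implies. The HF-SC Tom libraries also held endothelial transcripts, as given below, which limits all HF-SC Tom values. In bulk samples, fewer cells of a type and less RNA per cell cannot be told apart.

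No member passed as higher in either mutant GFP population. Jun and Junb were the genes deleted, so the 6 other tested members are counted on their own. In HF-SC GFP, 3 of these 6, Jund, Fos and Fosb, were lower than in Co and 0 higher, where 20.0% of all tested genes were lower and 18.5% higher. In b-KC GFP, 4 of the 6, with Fosl1 as the fourth, were lower and 0 higher, beside 21.3% and 20.3% of all genes. In the non-mutant cells of the same mice, 3 of the 6 were lower and 1, Batf, was higher in HF-SC Tom, beside 22.1% and 22.3% of all genes, and 5 were lower and 0 higher in b-KC Tom, beside 23.3% and 22.6%. The median log2 fold change of the 6 was -0.58 for HF-SC GFP, -0.68 for HF-SC Tom, -1.01 for b-KC GFP and -1.61 for b-KC Tom, while the median of all tested genes lay between -0.05 and -0.02. Counted without a test, 3 of the 6 had all 3 libraries below all 3 Co libraries in HF-SC GFP and 1 had all above (28.0% and 24.7% of all genes), 3 and 1 in HF-SC Tom (24.6% and 24.4%), 4 and 0 in b-KC GFP (31.0% and 28.0%), and 5 and 0 in b-KC Tom (34.0% and 31.6%). With Jun and Junb, 5 and 6 of 8 members were lower in GFP HF-SCs and b-KCs, and 4 and 7 in the Tom cells. At an adjusted p under 0.01 with a log2 fold change of 2 or more either way, 2 members passed in each GFP population, the deleted Jun and Junb, 0 in HF-SC Tom and 2, Fos and Fosb, in b-KC Tom, beside 3.07% of all genes for HF-SC GFP, 1.87% for b-KC GFP, 4.09% for HF-SC Tom and 2.75% for b-KC Tom. The count of the 8 members passing at 0.05 and the share of all genes passing either way both moved with the mouse left out. For HF-SC GFP the count dropped to 3 without mouse 810, 815 or 828, where the share of all genes went from 38.5% to 31.3%, 25.8% and 28.0%. For HF-SC Tom it dropped to 3 without mouse 815, 825 or 828, where the share went from 44.4% to 31.0%, 34.1% and 33.3%, and for b-KC GFP to 2, Jun and Junb, without mouse 815, where the share went from 41.6% to 20.5%. Without mouse 817 the counts were 6, 6 and 7, and the shares 51.5%, 59.4% and 59.4%. In b-KC Tom, 6 or 7 members passed whichever mouse was left out, with shares of 30.0% to 57.6%, beside 45.9% with all mice. Without mouse 817, Batf passed as higher in both GFP populations (adjusted p = 0.0219 in HF-SCs and 0.00458 in b-KCs, limma), where 24.4% and 29.7% of all genes were higher. With mouse 817 alone for HF-SC Tom, the log2 fold change was -0.67 for Jun, -1.38 for Fos and -1.14 for Fosb. For Fosl1, Fosl2 and Batf it was 0.68, 0.22 and 0.42, in a fit where the lone library is assumed to vary like the other groups.

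**Figure D1:**
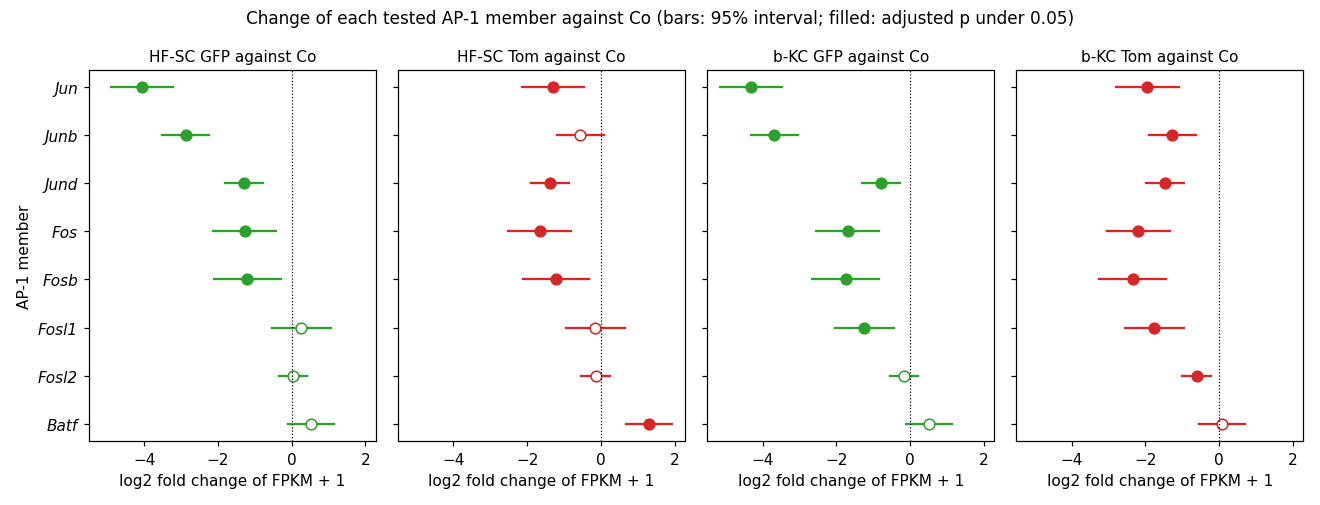
Log2 fold change of FPKM + 1 (x axis) against Co for the 8 tested members (y axis), with 95% intervals from limma; filled points passed at an adjusted p under 0.05. Jun and Junb lie farthest left in both GFP panels, Jund, Fos and Fosb are left of 0 in all 4 panels, and Batf is the one filled point on the right, in HF-SC Tom.

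Jun and Junb were the deleted genes and check the labels. Jun, the c-Jun transactivator, stood at 835, 1028 and 1086 FPKM in HF-SCs of Co mice 810, 825 and 828, and in mice 814, 815 and 817 at 69.6, 88.4 and 30.4 in the GFP and at 308, 332 and 614 in the Tom HF-SCs, the order of mice used for all values that follow. Among b-KCs, the Co libraries held 876, 979.7 and 1000 FPKM, those of GFP cells 53.9, 65.4 and 29.6 and those of Tom cells 163, 229 and 400.4. The order was Co, then Tom, then GFP in both cell types with no library overlapping. The mean of Jun was 15.7-fold lower than Co in HF-SC GFP and 19.2-fold lower in b-KC GFP, against 2.35-fold and 3.61-fold in the Tom cells. All 4 changes passed, with log2 fold changes of -4.07, -1.30, -4.30 and -1.94 ± 0.40 (SE, 3 against 3 libraries) for GFP and Tom HF-SCs and then GFP and Tom b-KCs (adjusted p = 1.53e-06, 0.0155, 2.3e-06 and 0.00114, limma). The call in Tom HF-SCs was lost without mouse 814, 815, 825 or 828 (adjusted p from 0.0561 to 0.0736), and with mouse 817 alone the change was -0.67 (adjusted p = 0.375). FPKM is a value for the whole gene, so which part of the transcript the remaining reads came from cannot be told from it.

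Junb, an AP-1 subunit with weaker transactivation than c-Jun, stood at 463, 436 and 443 FPKM in HF-SCs of Co mice, at 71.3, 77.5 and 38.6 in the GFP and at 251, 278 and 402 in the Tom HF-SCs. The Co b-KCs held 737, 772 and 739.7 FPKM, the GFP b-KCs 69.4, 72.2 and 37.2 and the Tom b-KCs 208, 362 and 397. As with Jun, GFP, Tom and Co libraries did not overlap. The mean was 7.16-fold lower than Co in HF-SC GFP and 12.6-fold lower in b-KC GFP, at -2.88 and -3.69 ± 0.30 on the log2 scale (adjusted p = 2.89e-06 and 7.88e-07, limma), and Tom b-KCs passed at -1.27 ± 0.30 (adjusted p = 0.00308). In HF-SC Tom it stood at -0.56 and did not pass (95% interval -1.19 to 0.08, adjusted p = 0.147, limma), and without mouse 817, which had the highest Junb of the HF-SC Tom libraries, it was -0.76 and passed (adjusted p = 0.00315).

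Jund, the third Jun protein, is broadly expressed and was not targeted in these mice. It stood at 145, 116 and 119.9 FPKM in HF-SCs of Co mice, at 40.3, 56.9 and 57.1 in the GFP and at 41.4, 47.4 and 56.1 in the Tom HF-SCs. For b-KCs the Co libraries gave 98.3, 95.9 and 104 FPKM, those of GFP cells 45.0, 52.5 and 78.9 and those of Tom cells 22.9, 39.1 and 49.0. Every DKO* library lay below every Co library of its cell type. The log2 fold change was -1.30 ± 0.24 (SE, 3 against 3 libraries) in GFP HF-SCs (adjusted p = 0.000649, limma), -1.38 ± 0.24 in Tom HF-SCs (adjusted p = 0.000322), -0.79 ± 0.24 in GFP b-KCs (adjusted p = 0.0184) and -1.46 ± 0.24 in Tom b-KCs (adjusted p = 0.000236). These are mean levels of 40.5%, 38.0%, 59.2% and 37.3% of Co. The call in b-KC GFP was lost without mouse 815, 825 or 828, with adjusted p of 0.118, 0.0518 and 0.0709. In the annotation 18.9% of the exon bases of Jund are also exon of Gm11175 on the other strand, and 7.28% of those of Jun are exon of BC042782, and these libraries do not keep the strand.

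On the Fos side of the dimer, Fos itself was also lower. Fos stood at 2841, 2094 and 2403 FPKM in HF-SCs of Co mice, at 865, 900.3 and 1284 in the GFP and at 633, 762 and 932 in the Tom HF-SCs. In basal keratinocytes the Co libraries had 2073, 2046 and 2308 FPKM, those of GFP cells 471, 474 and 1305 and those of Tom cells 273, 429 and 879. It was the most abundant member by FPKM in all 18 libraries, and no DKO* library reached a Co library. Its log2 fold change was -1.28 ± 0.40 in GFP HF-SCs (adjusted p = 0.02, limma), -1.66 ± 0.40 in Tom HF-SCs (adjusted p = 0.00368), -1.69 ± 0.40 in GFP b-KCs (adjusted p = 0.00421) and -2.19 ± 0.40 in Tom b-KCs (adjusted p = 0.000514). The HF-SC GFP call was lost without mouse 810, 815 or 828 (adjusted p = 0.0807, 0.104 and 0.0634), the b-KC GFP call without mouse 815 (adjusted p = 0.0639), and the HF-SC Tom call when mouse 817 alone stood for these cells (adjusted p = 0.0915).

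Fosb, which like Fos carries a transactivation domain, was lower in the same populations. It stood at 93.1, 72.5 and 87.0 FPKM in HF-SCs of Co mice, at 30.5, 35.3 and 42.5 in the GFP and at 33.3, 35.6 and 37.3 in the Tom HF-SCs. Among b-KCs, the Co libraries held 105, 90.5 and 125 FPKM, those of GFP cells 19.4, 19.9 and 75.3 and those of Tom cells 10.5, 20.8 and 35.9. The highest DKO* library in b-KCs, the GFP cells of mouse 817, still lay below the lowest Co library. The log2 fold change was -1.20 ± 0.43 in GFP HF-SCs (adjusted p = 0.0349, limma), -1.22 ± 0.43 in Tom HF-SCs (adjusted p = 0.0295), -1.74 ± 0.43 in GFP b-KCs (adjusted p = 0.00478) and -2.35 ± 0.43 in Tom b-KCs (adjusted p = 0.000448). In HF-SC GFP the call was lost without any 1 mouse except 817, with adjusted p from 0.0644 to 0.112, and with no filter on low values (adjusted p = 0.06, limma). In HF-SC Tom it was lost without mouse 810, 815, 825 or 828, with adjusted p from 0.0569 to 0.0933. With mouse 817 alone for HF-SC Tom the change was -1.14. The b-KC GFP call was lost without mouse 815 (adjusted p = 0.0688).

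**Figure D2:**
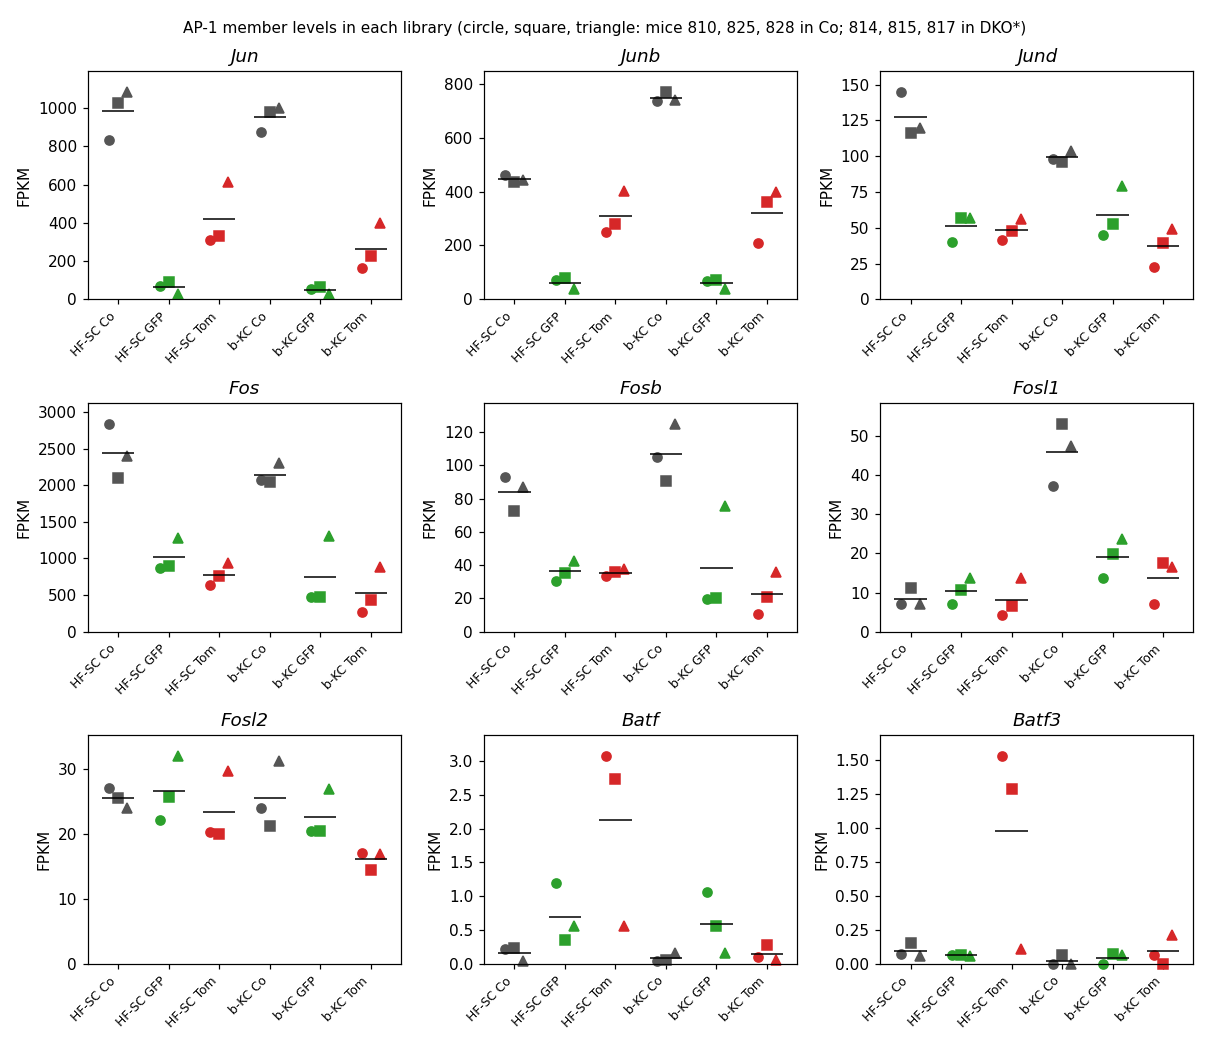
FPKM of each member (y axes, linear from 0) in the 18 libraries by group (x axes); points are libraries, with symbols for the mice, and lines are group means. Jund, Fos and Fosb sit below Co in every DKO* library, Fosl2 overlaps with Co in all but b-KC Tom, and Batf and Batf3 are high in the same HF-SC Tom libraries, those of mice 814 and 815.

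Fosl1, the Fra-1 protein of activated keratinocytes, had a level that differed between the cell types. The Co b-KCs held 37.2, 53.2 and 47.6 FPKM, the GFP b-KCs 13.7, 19.9 and 23.6 and the Tom b-KCs 6.95, 17.5 and 16.5. Among HF-SCs, the Co libraries held 7.15, 11.2 and 7.00 FPKM, those of GFP cells 6.94, 10.7 and 13.7 and those of Tom cells 4.25, 6.49 and 13.8. So in b-KCs all DKO* libraries were below Co, with log2 fold changes of -1.24 ± 0.38 in GFP (adjusted p = 0.0159, limma) and -1.76 ± 0.38 in Tom (adjusted p = 0.00153), while in HF-SCs the groups overlapped. The HF-SC values were 0.26 in GFP (95% interval -0.54 to 1.06, adjusted p = 0.614) and -0.15 in Tom (-0.95 to 0.65, adjusted p = 0.77), and the upper bound in GFP still allows a Fosl1 level above Co. The b-KC GFP call was lost without mouse 815, 825 or 828 (adjusted p = 0.0698, 0.0626 and 0.0595).

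The Fosl1 values carry a limit of their own. In NCBIM37, 68.1% of the exon bases of Fosl1, at chr19:5447703-5455945 on the plus strand, lie within the exon of Ccdc85b on the minus strand, so without strand their reads cannot be told apart there. Ccdc85b had 66.8 to 91.8 FPKM in b-KC Co, 22.5 to 40.7 in b-KC GFP and 13.2 to 31.9 in b-KC Tom, and 10.4 to 23.7 over the HF-SC libraries. Of all tested genes, Ccdc85b had the pattern nearest to that of Fosl1 over the 18 libraries (Pearson r = 0.992 of log2(FPKM + 1), a description). Its log2 fold change was -1.30 in GFP and -1.66 in Tom b-KCs, beside -1.24 and -1.76 for Fosl1.

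Fosl2, the Fra-2 protein, stayed closest to Co of the tested members by log2 fold change in both HF-SC populations and in GFP b-KCs. In HF-SC Tom it stood at -0.14, with Fosl1 almost as close at -0.15. In b-KC Tom the closest member was Batf, at 0.075. Among HF-SCs, the Co libraries held 27.2, 25.5 and 24.0 FPKM, those of GFP cells 22.1, 25.7 and 32.1 and those of Tom cells 20.3, 20.1 and 29.8. For b-KCs the Co libraries gave 24.1, 21.3 and 31.3 FPKM, those of GFP cells 20.5, 20.5 and 26.9 and those of Tom cells 17.1, 14.5 and 17.0. The b-KC Tom libraries alone were all below Co, with a log2 fold change of -0.61 ± 0.18 (limma, adjusted p = 0.0118), a call lost without mouse 815 or 828 (adjusted p = 0.0863 and 0.0858). In the other populations the 95% intervals were -0.34 to 0.43 in HF-SC GFP, -0.53 to 0.24 in HF-SC Tom and -0.54 to 0.22 in b-KC GFP, so a rise in Fosl2 of more than 0.43 on the log2 scale lies outside the interval in each.

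Batf and Batf3, known mainly from lymphocytes and dendritic cells, were near the floor in most libraries. For Batf the Tom HF-SCs held 3.08, 2.74 and 0.558 FPKM, the GFP HF-SCs 1.19, 0.346 and 0.558, and the Co HF-SCs 0.216, 0.237 and 0.0454. The GFP b-KCs held 1.06, 0.552 and 0.156 FPKM, the Tom b-KCs 0.104, 0.280 and 0.0559, and the Co b-KCs 0.0477, 0.0488 and 0.163. All DKO* HF-SC libraries lay above the Co ones, and the b-KC groups overlapped. It was the one member that passed as higher, in HF-SC Tom, with a log2 fold change of 1.31 ± 0.30 (limma, adjusted p = 0.00231). The mean was 12.8-fold that of Co, whose HF-SC libraries held 4, 4 and 1 reads at the implied depths. Batf met the filter only through DKO* libraries where it was high, so its p-values against Co are no separate support for a rise. It did not pass in HF-SC GFP (0.52, 95% interval -0.11 to 1.15, adjusted p = 0.183) or in b-KC GFP (0.51, -0.12 to 1.14, adjusted p = 0.177). Without mouse 817 both GFP values passed, at 0.56 (adjusted p = 0.0219) and 0.72 (adjusted p = 0.00458), and a pseudocount of 0.1 gave 1.69 in b-KC GFP (adjusted p = 0.0494).

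Batf3 was listed at 1.53, 1.28 and 0.109 FPKM in HF-SC Tom, which at the implied depths are 18, 24 and 2 reads. In every other library it had at most 0.213 FPKM, or 3 reads, and 4 of the b-KC libraries were listed at 0. It was therefore not tested with the other members, and only 2 libraries, those of Tom HF-SCs from mice 814 and 815, held more than 3 reads.

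The same HF-SC Tom libraries held endothelial transcripts. The summed FPKM of 10 endothelial markers was 1480 and 1421 in the Tom HF-SCs of mice 814 and 815 and 446 in those of mouse 817, against 53.5 to 85.9 for Co HF-SCs, 1.84 to 30.8 for GFP HF-SCs and 1.61 to 11.5 over the b-KC libraries. All 10 of these markers rose in HF-SC Tom against Co. The summed FPKM of 14 leukocyte markers was 128 to 271 for Tom and 149 to 197 for GFP HF-SCs, and 293 to 506 for GFP and 222 to 1007 for Tom b-KCs, against 5.88 to 13.2 in Co, mostly as Cd74 and H2-Aa. Of the 14 leukocyte markers, 8 could be tested against Co, and 0 passed as lower in any population. Those that passed as higher numbered 6 for GFP and 5 for Tom HF-SCs, beside 18.5% and 22.3% of all genes. For b-KCs they numbered 4 in the GFP fraction and 2 in the Tom fraction, beside 20.3% and 22.6%. Ptprc, the CD45 gene that the sort gates against, had at most 0.946 FPKM in any library, and Cd3e at most 0.210. With mouse 817 alone for HF-SC Tom, the log2 fold change of Batf was 0.42 (adjusted p = 0.277, limma). The part of endothelial or leukocyte transcripts in the values of Batf, Batf3 and the other members was not tested.

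**Figure D3:**
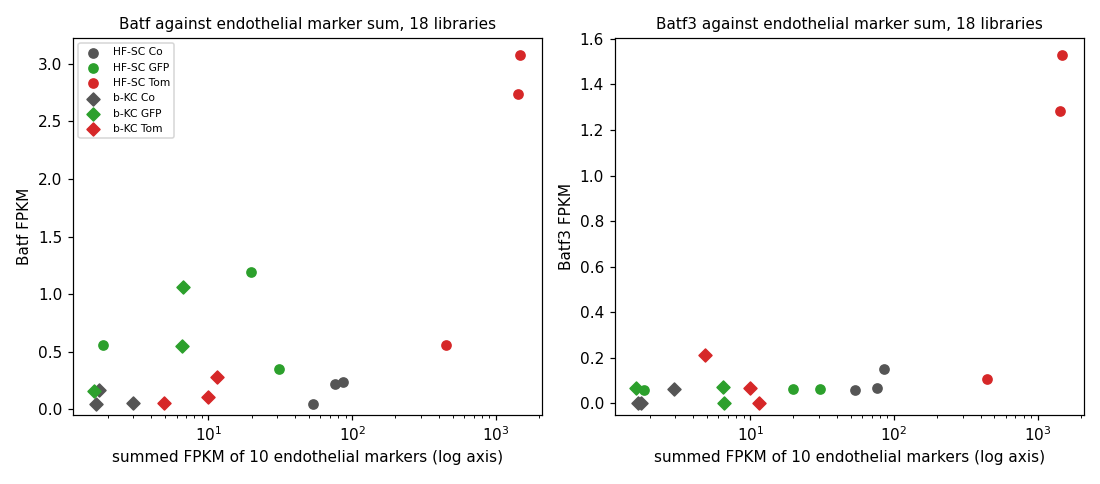
FPKM of Batf (left) and Batf3 (right) against the summed FPKM of 10 endothelial markers (x axes, log scale) in the 18 libraries, coloured by group. Tom HF-SCs of mice 814 and 815 lie at the upper right of both panels, while the b-KC GFP library of mouse 814 has 1.06 FPKM of Batf at an endothelial sum of 6.61.

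Mutant and non-mutant cells of the same mice were compared directly to see which members differed between cells with and without recombination. Jun and Junb were lower in GFP than in Tom in both cell types, and no other member passed. That is 2 of 8 members lower in HF-SCs, where 5.80% of all genes were lower and 2.83% higher, and 2 of 8 in b-KCs, where 0.518% were lower and 1.19% higher. The log2 difference of Jun was -2.77 ± 0.40 in HF-SCs (adjusted p = 0.000174, limma) and -2.36 ± 0.40 in b-KCs (adjusted p = 0.0066), and that of Junb was -2.33 ± 0.30 (adjusted p = 5.88e-05) and -2.42 ± 0.30 (adjusted p = 0.000858). In b-KCs both calls were lost when the fit held only the groups compared (adjusted p = 0.115 for Jun and 0.0767 for Junb) and without mouse 815 (adjusted p = 0.0837 for Jun and 0.0641 for Junb), and that of Jun without mouse 814 (adjusted p = 0.0521). Few of the 12751 genes passed in those fits. With only the groups compared 1 was higher and 2 lower, without mouse 815 1 and 0, and without mouse 814 18 and 10. In the main fit 152 were higher and 66 lower.

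Within mice, several members had the higher FPKM in the GFP cells without passing. Fos and Fosl2 were higher in GFP than in Tom in 3 of 3 mice in both cell types, and Jund, Fosl1 and Batf in 3 of 3 mice in b-KCs, a pattern of 20.6% of all tested genes in HF-SCs and 20.1% in b-KCs. Jund and Fosl1 were higher in 2 of 3 mice in HF-SCs, Fosb in 1 of 3 in HF-SCs and 2 of 3 in b-KCs, and Batf in 1 of 3 in HF-SCs. The log2 difference of Fos was 0.38 in HF-SCs (95% interval -0.47 to 1.24) and 0.50 in b-KCs (-0.36 to 1.36), and with the mouse as a fixed block it did not pass (adjusted p = 0.324 and 0.242, limma).

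Jund stood 0.68 ± 0.24 above Tom in the GFP b-KCs on the log2 scale and did not pass (adjusted p = 0.22, limma). With the mouse taken as a random block it passed (adjusted p = 0.0387), and with a fixed block over the 2 fractions it did not (adjusted p = 0.0541). The corresponding difference in HF-SCs was 0.08 (95% interval -0.44 to 0.60). Fosl2 had no overlap of GFP with Tom libraries in b-KCs, 20.5 to 26.9 against 14.5 to 17.1 FPKM, a pattern of 8.48% of all genes, and did not pass (0.45 ± 0.18, adjusted p = 0.301). Batf was -0.79 in HF-SC GFP against HF-SC Tom (adjusted p = 0.129) and passed with the random block (adjusted p = 0.0413) but not with the fixed block (adjusted p = 0.213). Without mouse 817 it was -1.18 (adjusted p = 0.000727), and with mouse 817 alone for HF-SC Tom it turned to 0.094 (adjusted p = 0.893). The 10 endothelial markers were all lower in GFP in this comparison, with a median of -4.84, and their part in the differences of Batf and the other members was not tested.

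In Co, 2 members were lower in HF-SCs than in b-KCs and 0 higher, beside 27.3% and 24.6% of all genes, and at an adjusted p under 0.01 with a log2 difference of 2 or more 1 member, Fosl1, passed, beside 5.65%. Fosl1 was 5.44-fold lower in HF-SC Co than in b-KC Co by the group means, at -2.33 ± 0.38 on the log2 scale (adjusted p = 0.0001, limma), and Ccdc85b differed by -2.28. Junb was 1.68-fold lower in HF-SC Co, at -0.74 ± 0.30 (adjusted p = 0.0486), and this call was lost without mouse 810, 825 or 828, or 815, whose libraries enter through the shared spread (adjusted p = 0.133, 0.178, 0.151 and 0.0725), and with equal summed FPKM it was -0.43 (adjusted p = 0.238). In all genes that scaling moved the passing genes from 3140 higher and 3483 lower to 4299 higher and 2001 lower. With the mouse as a fixed block over the Co libraries, Jund (0.35, adjusted p = 0.0274) and Fosb (-0.34, adjusted p = 0.0267) passed too. In that fit 3922 of the 12751 genes were higher and 4606 lower, beside 3140 and 3483 in the main fit. Jun, Fos and Fosl2 had overlapping libraries in the Co groups.

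Whether a member changed differently in HF-SCs and b-KCs was tested as an interaction, and 0 of 8 members passed for GFP or for Tom, where 12.5% and 15.8% of all genes did. At an unadjusted p under 0.05, 1 member in GFP and 2 in Tom remained, beside 28.0% and 29.0% of all genes. The widest differences were those of Fosl1, 1.50 ± 0.53 for GFP (adjusted p = 0.0771, limma) and 1.61 ± 0.53 for Tom (adjusted p = 0.0511), with the fall in b-KCs and none detected in HF-SCs. Ccdc85b, whose reads cannot be told apart from those of Fosl1 over most of its exon bases, passed in both, at 1.62 (adjusted p = 0.0272) and 1.60 (adjusted p = 0.0239), so these values cannot be given to Fosl1 alone. With the mouse as a random block both Fosl1 differences passed (adjusted p = 0.0102 and 0.00559), and so did Batf for Tom, at 1.23 (adjusted p = 0.0162), while 22.6% of all genes passed for GFP and 23.9% for Tom in that fit. Without mouse 817, Fosl1, Junb and Fosb passed for GFP (adjusted p = 0.0279, 0.0305 and 0.0211) and Fosl1, Fosb and Batf for Tom (adjusted p = 0.0409, 0.0025 and 0.000433), that is 3 of 8 members in each, where 30.8% and 25.4% of all genes passed. Without mouse 814 Fosl1 passed in each (adjusted p = 0.0375 and 0.0275), beside 7.62% and 11.9% of all genes.

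FPKM is per length of transcript, so the members' levels can be added. The summed FPKM of Jun, Junb and Jund was 1444, 1581 and 1649 in HF-SC Co and 181, 223 and 126 in HF-SC GFP, and it was 1712, 1847 and 1843 in b-KC Co and 168, 190.1 and 146 in b-KC GFP. The mean sum in GFP cells was thus 11.3% of Co for HF-SCs and 9.33% for b-KCs, while Tom cells had 49.9% and 34.6%. Jund added nothing above its Co level to these sums: its mean minus that of Co was -75.6 FPKM in HF-SC GFP and -40.5 FPKM in b-KC GFP.

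Jund took a larger share of the Jun class in GFP libraries than in any other. It made up 22.2%, 25.6% and 45.3% of the Jun class in HF-SC GFP and 26.7%, 27.6% and 54.1% in b-KC GFP. In HF-SC Co it made up 7.27% to 10.1%, in b-KC Co 5.19% to 5.75%, in HF-SC Tom 5.24% to 7.21% and in b-KC Tom 5.79% to 6.20%. Jun and Junb are in the denominator of this share, so it is no measure of the level of Jund. The summed FPKM of Fos, Fosb, Fosl1 and Fosl2 was 42.5% of Co in GFP and 32.9% in Tom HF-SCs, and 35.8% in GFP and 25.0% in Tom b-KCs. The ratio of the Fos class sum to the Jun class sum was 1.39 to 2.06 in HF-SC Co and 1.20 to 1.36 in b-KC Co, 4.36 to 10.9 in HF-SC GFP and 2.81 to 9.82 in b-KC GFP, and 0.946 to 1.25 in HF-SC Tom and 0.766 to 1.12 in b-KC Tom. The deleted Jun and Junb are in the denominator of this ratio too, so its higher values in GFP cells are no rise of the Fos class.

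**Figure D4:**
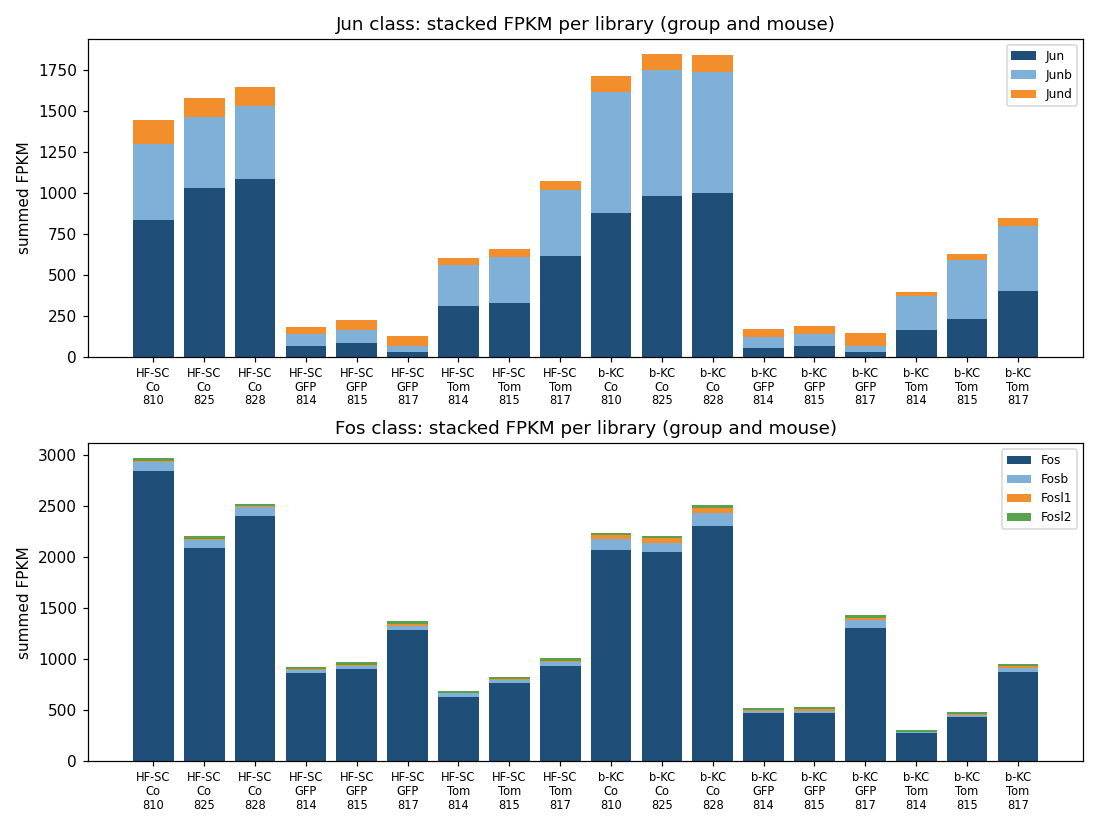
Stacked FPKM (y axes) of Jun, Junb and Jund (top) and of Fos, Fosb, Fosl1 and Fosl2 (bottom), 1 bar per library, labelled with group and mouse (x axes). The Jun class in GFP libraries ranges from 126 to 223 FPKM, of which Jund is a larger share than elsewhere, and Fos makes up most of every Fos class bar.

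Mouse 817 stood apart among the DKO* mice, and not in the members alone. Its GFP libraries had the lowest Jun and Junb of the 3 mice in both cell types, with Jun at 0.385 and 0.497 of the mean of the other mice, while its Tom libraries had the highest. Its Jund, Fos and Fosb were the highest of the 3 mice in all 4 DKO* populations. Of these 3 genes Fos and Fosb stood farthest apart in b-KC GFP, where Fos was 2.76 times and Fosb 3.82 times the mean of mice 814 and 815, and in b-KC Tom, where they were 2.50 and 2.29 times. In HF-SCs Fos of mouse 817 was 1.46 times that of the others in GFP and 1.34 times in Tom. Batf went the other way, at 0.192 of the mean of the others in HF-SC Tom and 0.193 in b-KC GFP, as did Batf3 in HF-SC Tom, at 0.0775. What set this mouse apart was not tested.

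Other immediate-early genes fell more often than they rose. Of 20 immediate-early genes outside AP-1, 8 fell and 2 rose in GFP HF-SCs, 7 fell and 2 rose in Tom HF-SCs, 14 fell and 2 rose in GFP b-KCs, and 17 fell and 0 rose in Tom b-KCs, with medians of -0.63, -0.46, -0.98 and -1.55 on the log2 scale. Of all tested genes 20.0%, 22.1%, 21.3% and 23.3% fell and 18.5%, 22.3%, 20.3% and 22.6% rose in these comparisons, the shares against which the counts of this and the following lists with all libraries are to be read. Leaving out a mouse moved these shares as well, most with mice 815 and 817. Without 815, 12.4%, 14.9%, 10.1% and 15.2% of all genes fell and 13.4%, 16.1%, 10.4% and 14.8% rose. Without 817, 27.1%, 29.5%, 29.7% and 29.2% fell and 24.4%, 29.9%, 29.7% and 28.4% rose. The other mice gave 13.5% to 20.0% that fell and 13.7% to 20.4% that rose, and mouse 817 alone for HF-SC Tom 16.1% and 16.6%. With mouse 817 alone, 2 immediate-early genes fell and 3 rose in HF-SC Tom, but 1 library, whose spread is taken from the other groups, has less power to call a change. Leaving out 1 mouse gave 2 (without 815) to 14 (without 817) that fell in GFP HF-SCs, 4 (without 810, 815 or 828) to 11 (without 817) in Tom HF-SCs, 7 (without 815) to 16 (without 817) in GFP b-KCs and 16 to 18 in Tom b-KCs. Ctgf, a matricellular protein gene, fell most, at -2.61 in GFP and -2.69 in Tom HF-SCs and at -3.06 in Tom b-KCs, and stood at -1.28 in GFP b-KCs. Cyr61, of the same family, stood at -1.56 in GFP and -1.14 in Tom HF-SCs and at -1.68 in GFP and -1.69 in Tom b-KCs. Klf2, a Krüppel-like factor gene, stood at -1.55 in GFP HF-SCs and at -1.81 in GFP and -2.25 in Tom b-KCs, without passing in HF-SC Tom, and its relative Klf6 fell in all 4 populations, at -1.45 in GFP and -0.97 in Tom HF-SCs and at -1.71 and -2.21 in b-KCs. Egr1, a zinc finger factor gene, also fell in all 4, at -1.37 in GFP and -1.64 in Tom HF-SCs and at -1.57 in GFP and -2.02 in Tom b-KCs. Nr4a1, an orphan nuclear receptor gene, fell in both b-KC populations, at -1.46 in GFP and -2.28 in Tom, and did not pass in HF-SCs. Ier5 went the other way, at 0.68 in GFP and 1.45 in Tom HF-SCs and at 0.67 in GFP b-KCs. For the genes of this and the following lists named with a value, the SE lay between 0.132 and 0.639, and the adjusted p reached at most 0.0475 (limma).

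**Figure D5:**
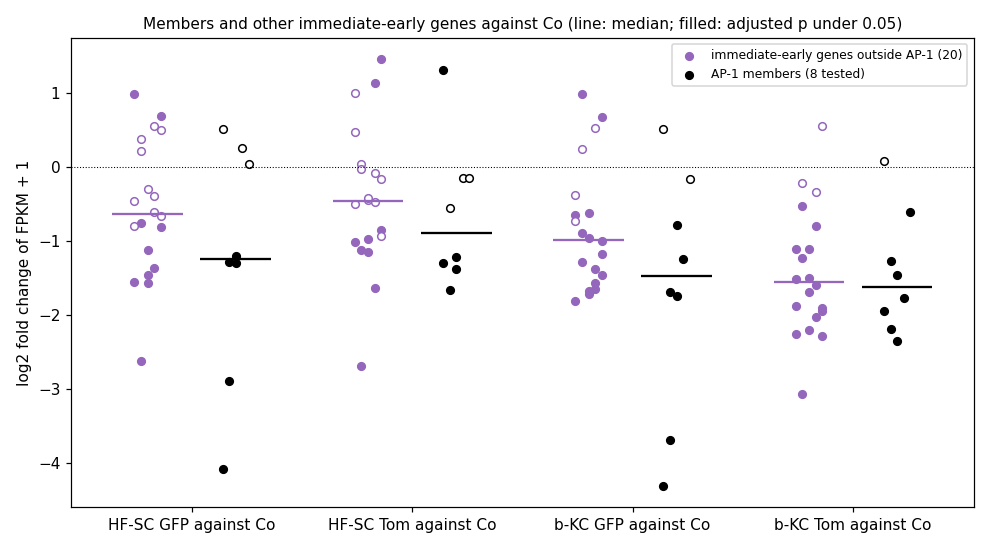
Log2 fold change of FPKM + 1 against Co (y axis) of 20 immediate-early genes outside AP-1 and of the 8 tested members, in the 4 comparisons (x axis); lines are medians and filled points passed at an adjusted p under 0.05. Most filled points of both lists lie below 0, and the members include the deleted Jun and Junb, without which their median is -0.58 in HF-SC GFP and -1.01 in b-KC GFP, beside -0.63 and -0.98 for the other list.

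Further bZIP genes whose proteins can pair with AP-1 members were read for the same question. Of 19 tested, 3 rose and 5 fell in HF-SC GFP, 2 and 6 in HF-SC Tom, 2 and 8 in b-KC GFP, and 3 and 9 in b-KC Tom, and with mouse 817 alone HF-SC Tom had 2 that rose and 2 that fell. The falls dropped to 2 in HF-SC GFP without mouse 814, 815 or 828 and to 3 without 810 or 825, to 2 in b-KC GFP without mouse 815, to 3 without 828 and to 5 without 814, and to 5 in b-KC Tom without mouse 828, while between 1 and 4 genes rose whichever mouse was left out. Atf3, a stress-induced partner of Jun proteins, was the most changed of those whose libraries did not overlap with Co, in all 4 populations, with log2 fold changes of -1.61 in GFP and -1.44 in Tom HF-SCs and of -1.31 in GFP and -2.04 in Tom b-KCs. Its mean was 394 FPKM in HF-SC GFP against 1182 in HF-SC Co. Maff and Maf fell in all 4 populations, Maff at -1.11 and -1.12 in GFP and Tom HF-SCs and at -0.95 and -1.49 in GFP and Tom b-KCs, and Maf at -0.93, -1.28, -1.21 and -1.07. Mafk fell in b-KCs, at -1.24 in GFP and -1.86 in Tom, and did not pass in HF-SCs.

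Kinases and regulators that act on AP-1 moved both ways. Of 29 tested, 7 rose and 4 fell in HF-SC GFP, 8 and 5 in HF-SC Tom, 3 and 12 in b-KC GFP, and 4 and 12 in b-KC Tom, and with mouse 817 alone HF-SC Tom had 9 that rose and 1 that fell. Without mouse 815 the falls dropped to 2 in HF-SC GFP, to 4 in b-KC GFP and to 7 in b-KC Tom. They also dropped in b-KC GFP to 5 without mouse 814 or 828 and to 7 without 810, in b-KC Tom to 7 without 828, and in HF-SC Tom to 3 without 814 or 825 and to 2 without 828, and went up to 8 without 817. Those that rose numbered 5 to 8 in HF-SC GFP, 6 to 9 in HF-SC Tom, 2 (without 815) to 6 (without 817) in b-KC GFP and 4 to 6 in b-KC Tom. Map2k1, the MEK1 kinase of the ERK pathway, rose by 1.36 in HF-SC GFP and 1.60 in b-KC GFP, from 22.5 to 59.3 FPKM and from 19.4 to 62.0 FPKM by the means, and by 0.56 and 0.98 in the Tom cells. The p38 kinase gene Mapk13 rose in all 4 populations, by 1.14 and 0.73 in GFP and Tom HF-SCs and by 0.89 and 0.74 in b-KCs, and Mapk11 in HF-SCs, by 1.10 in GFP and 1.24 in Tom. Dusp1, a phosphatase of JNK and p38 that is itself an immediate-early gene, fell in all 4 populations, at -1.07 in GFP and -1.15 in Tom HF-SCs and at -1.08 and -1.51 in b-KCs. Elk4, a serum response factor partner, fell in b-KCs, at -1.08 in GFP and -1.02 in Tom, and so did Dusp4, at -0.83 and -1.22. Elk3 rose in both Tom populations, by 2.29 in HF-SCs and 1.40 in b-KCs, while Rps6ka3 rose by 1.45 in Tom HF-SCs, the cells with the high endothelial sums, and by 0.71 in GFP HF-SCs. The part of endothelial transcripts in these changes was not tested.

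Genes known as AP-1 targets mostly rose in HF-SCs and were mixed in b-KCs. Of 22 tested, 15 rose and 0 fell in HF-SC GFP and 17 rose and 2 fell in HF-SC Tom, with medians of 1.50 and 1.35 on the log2 scale. In b-KCs 5 rose and 5 fell in GFP and 5 rose and 3 fell in Tom, with medians of 0.18 and 0.14. With mouse 817 alone 13 rose and 0 fell in HF-SC Tom, and with equal summed FPKM 3 rose and 6 fell in GFP b-KCs. Without mouse 817, b-KC counts were 7 that rose and 8 that fell in GFP and 10 and 6 in Tom, and without mouse 815 they were 3 and 3 in GFP. Cell type markers moved in the same HF-SC comparisons: the summed FPKM of 5 suprabasal markers was 669 to 875 in HF-SC Co, 1679 to 3382 in HF-SC GFP and 1610 to 2064 in HF-SC Tom, and 3 of the 5 rose in each, with 0 and 1 that fell. Of 7 bulge markers, 4 fell in HF-SC GFP and 6 in HF-SC Tom, and 0 rose. In b-KCs the suprabasal sum was 6706 to 8312 in Co, 4793 to 6748 in GFP and 3824 to 6913 in Tom, and 2 of the 5 fell and 0 rose in each. The target list shares Ivl and Lor with the suprabasal list, and the part of cell type makeup in these counts was not tested. The matrix metalloproteinase gene Mmp13 rose from a mean of 0.254 FPKM in HF-SC Co to 75.3 in HF-SC GFP and 32.5 in HF-SC Tom. Mmp9 rose by 3.68 in HF-SC GFP and 3.98 in HF-SC Tom, and Sprr1b, a cornified envelope gene, by 4.80 and 4.03. Of b-KC genes that fell, Mmp3 stood at -2.92 in GFP, while it rose in HF-SCs, by 2.85 in GFP and 2.61 in Tom. Lor, the loricrin gene, stood at -2.48 in GFP and -3.41 in Tom b-KCs and at -1.56 in Tom HF-SCs, and Timp3, a metalloproteinase inhibitor, at -1.98 in GFP and -3.04 in Tom b-KCs. Sprr1b rose in b-KCs too, by 1.84 in GFP and 2.81 in Tom.

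Over the 18 libraries, the members fell into sets of like pattern (Pearson r of log2(FPKM + 1), a description over libraries that share mice). Jun and Junb were each other's nearest gene, with r of 0.97. Both were deleted in the same GFP cells, so a likeness between them was built into the design. Fos, Fosb and Jund ran together, with r of 0.969 between Fos and Fosb, 0.945 between Jund and Fos and 0.923 between Jund and Fosb. The r of Jun was 0.554 with Fos and 0.551 with Jund. Beside these, the nearest genes were Kbtbd4 and Acad8 for Jun, Fam213a and Fam110c for Junb, Usp2 (0.958) and Aldh2 for Jund, Kif21a (0.979) and Tob1 for Fos, and Zfp36 (0.958) and Ier2 for Fosb. Fosl1 had Cish and Paqr5 after Ccdc85b, Fosl2 had Mdm2 (0.868) and Tanc2, and Batf had Rtp4 (0.958), St6gal1 and Apobec3.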

How the data were processed

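RNA of 18 sorted epidermal libraries was sequenced after full-length cDNA amplification, without strand. Single-end reads were mapped by the authors with TopHat 2.0.10, using Bowtie 1.0.0 and SAMtools, on the NCBI37/mm9 build, and genes were quantified with Cufflinks 2.2.1. The deposited values are FPKM, 1 per gene and library.

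FPKM plus a pseudocount of 1 was put on the log2 scale, from the values as deposited, and genes that reached 1 FPKM in 3 or more libraries were fitted with limma 3.58.1 in R 4.3.3 (trend, 1 mean per group, all 18 libraries sharing 1 spread). P-values were adjusted over all 12751 genes by the Benjamini-Hochberg method. The fit was tested on simulated data first. Each Co mouse gave 2 libraries and each DKO* mouse 4, so the libraries of a group come from separate animals but those of different groups share them. The sample labels give the mouse of each library, so libraries pair by mouse (r of same-mouse deviations 0.0838 to 0.70), and models with a mouse block were also fitted.

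The 9 members, the gene lists and the tests were chosen with earlier results of these data known. Genes outside the members are named where they were among the 3 most changed passing genes of a list in a comparison with Co with libraries that did not overlap, or the 3 with the highest Pearson r with a member. Some genes that this rule names are not reported here. Read depth was implied from low FPKM steps of genes with 1 annotated transcript, 76.6% to 80.7% of which lay within 0.1 of a whole read, and floors cover counting error only. Transcript positions came from the NCBIM37 annotation and promoters from RefSeq. Alternatives were a pseudocount of 0.1, no filter, stricter thresholds, only the groups compared, no trend, rescaled libraries, mouse blocks, each mouse left out, and, chosen after seeing the data, equal summed FPKM and mouse 817 alone for HF-SC Tom. Python 3.11.15 with pandas 2.3.3 was used for the summaries.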

Additional observations from a re-analysis of the deposited data

How the results depend on the processing

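Of 72 member changes tested, 29 passed; all 29 kept their direction in every alternative, and 15 also passed in every alternative that kept the threshold. Fits of 3 libraries a group on FPKM, with no read counts, limit what can be seen. With the stricter threshold, an adjusted p under 0.01 and a log2 fold change of 2 or more either way, 2 members passed for HF-SC GFP, 0 for HF-SC Tom, 2 for each b-KC population and 1 between the Co groups. Leaving out 1 mouse gave 3 to 6 members in HF-SC GFP, 3 to 6 in HF-SC Tom, 2 to 7 in b-KC GFP, 6 to 7 in b-KC Tom, 2 to 3 and 0 to 2 for GFP against Tom in HF-SCs and b-KCs, 1 to 2 between the Co groups, and 0 to 3 for each interaction. With mouse 817 alone for HF-SC Tom, the Tom interaction was 2.44 for Fosl1 and 0.83 for Fosl2, and no count of members is read from this 1 library. Only the groups compared gave 0 for b-KC GFP against Tom, where 1 of the 12751 genes was higher and 2 lower. That fit gave 1 for the GFP interaction, where 1253 genes were higher and 1062 lower. No filter gave 1 between the Co groups, where 3829 of 19924 genes were higher and 3576 lower. Equal summed FPKM also gave 1 there (4299 higher and 2001 lower of 12751) and 1 in the Tom interaction (1336 and 504). Rescaled libraries gave 1 in the Tom interaction (1319 and 699). The fixed mouse block gave 4 between the Co groups, where 3922 of the 12751 genes were higher and 4606 lower. The random block gave 1 in the GFP and 2 in the Tom interaction, where 22.6% and 23.9% of all genes passed. The block changed no other count of members by over 1.5 times. Equal summed FPKM moved the Jun class sum to 2007 FPKM in HF-SC Co and 133 in b-KC GFP, and the Fos class sum to 3274 in HF-SC Co. For the Jun class, leaving out 1 mouse gave mean sums of 1512 to 1615 FPKM in HF-SC Co, 154 to 202 in HF-SC GFP, 629 to 865 in HF-SC Tom, 1777 to 1845 in b-KC Co, 157 to 179 in b-KC GFP and 512 to 738 in b-KC Tom, and for the Fos class 2362 to 2744, 948 to 1172, 758 to 919, 2225 to 2376, 529 to 983 and 395 to 715.

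The 12 results that changed sign had not passed. Against HF-SC Co, Fosl2 in GFP went to -0.094 without mouse 817 (-0.094 to 0.16 over the mice left out) and -0.11 with equal summed FPKM, Fosl1 in Tom to 0.18 without mouse 814 (-0.56 to 0.18), 0.049 without 825 and 0.68 with mouse 817 alone, and Fosl2 in Tom to 0.22 with mouse 817 alone. Batf in b-KC Tom went to -0.0069 without mouse 815 (-0.0069 to 0.13). In HF-SC GFP against Tom, Jund went to -0.0071 without mouse 815 (-0.0071 to 0.14), Fosb to -0.068 without 817 (-0.068 to 0.085), and with mouse 817 alone Jund went to -0.14, Fosb to -0.059, Fosl1 to -0.42, Fosl2 to -0.17 and Batf to 0.094. Between the Co groups Fosl2 went to -0.061 without mouse 810 and -0.10 without 825 (-0.10 to 0.21). In the interactions, Batf for GFP went to -0.15 with a pseudocount of 0.1, -0.16 without mouse 817 and -0.12 without 828 (-0.16 to 0.16), and Jund for Tom to -0.11 without mouse 814 (-0.11 to 0.20). The causes were not tested.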
